A study of Mus musculus with 38 samples.

Results

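The 10 genes described here are core genes of the endoplasmic reticulum (ER) stress response in mouse: the chaperones Hspa5 and Hsp90b1, the ER-resident folding and degradation factors Sdf2l1, Creld2, Dnajb9 and Herpud1, and the regulators Xbp1, Atf4, Ddit3 and Trib3. They were chosen by name, as the rows of 2 deposited count tables whose gene identifier maps to these symbols, and are 10 of 45706 gene rows in each table; all 10 passed the filter on low counts in both. The cells were primary mouse embryonic fibroblasts (MEFs) of the C57BL/6 strain, wild-type (WT) or homozygous for a knock-in allele of the NF-kB subunit RelA that the labels name RelA-TA-KI. The series title speaks of transactivation, which is taken as the meaning of TA; the altered residues were not read from these data. All cells were starved of serum overnight, controls included, and were then left untreated or given the cytokine TNF (10 ng/ml), Poly(I:C), a mimic of double-stranded RNA (20 ug/ml), or bacterial LPS (100 ng/ml), and were collected after 0.5, 1, 3 and 8 h. The TNF table holds 20 libraries, 2 for each genotype and time, and the LPS and Poly(I:C) table holds 18, with 1 for each genotype and condition, untreated cells included. Untreated cells were collected at 0 h only, so the agent and the hours in culture cannot be told apart.

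In the unfolded protein response, membrane proteins of the ER sense unfolded protein: IRE1, which splices Xbp1 mRNA into the form that encodes an active transcription factor, ATF6, which is cut to release another, and PERK, which phosphorylates eIF2 alpha and so favours translation of Atf4. XBP1 and ATF6 act on ER stress response elements (ERSE) in promoters of chaperone and degradation genes. ATF4 acts on genes of amino acid supply and on Ddit3, whose product CHOP, with ATF4, raises Trib3. Fibroblasts secrete large amounts of collagen and need these chaperones in unstressed culture. Counts per gene do not show splicing of Xbp1, cleavage of ATF6 or phosphorylation, so no sensor activity was measured.

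Library totals were 6715022 to 9590932 counts in the TNF table and 7021799 to 9431334 in the other, and each member had at least 85 counts in each of the 38 libraries. Levels are given as CPM, a gene's counts scaled to a common library size with TMM factors, and a gene was called when its adjusted p in the edgeR quasi-likelihood test (Benjamini-Hochberg over all genes tested) was below 0.05. All 10 fibroblast markers were detected in all libraries. Macrophage markers were detected too, 19 or 20 of 20, with the macrophage receptor Cd163 at 0 in 36 libraries; their summed level was 1172 to 4707 CPM in the TNF table and 3900.4 to 6533 CPM in the other. Libraries also differed in sex-linked transcripts. In the TNF table WT replicate 2 had the Y-linked Ddx3y (131 to 159 CPM) and little Xist (2.33 to 3.84 CPM), while the other replicates had Xist at 332 to 542 CPM and Ddx3y at 0 to 0.673 CPM. Among libraries of the other table, those of RelA-TA-KI had Ddx3y at 101 to 170.5 CPM and Xist at 0.446 to 1.73 CPM, and those of WT had both (Ddx3y 51.6 to 80.5 CPM, Xist 208 to 498 CPM), so genotype and this difference cannot be told apart there. Summed epithelial and endothelial markers reached 793 CPM in RelA-TA-KI libraries and 155 CPM in WT libraries of the same table. In bulk RNA, fewer cells of a type and less RNA per cell cannot be told apart. Gene counts do not show the knock-in allele itself. The genotypes differed in NF-kB target genes: at 0.5 h of TNF, Nfkbia, which encodes the NF-kB inhibitor, rose 19.1-fold in WT and 1.53-fold in RelA-TA-KI (log2 difference of responses -3.64, SE 0.17, edgeR adjusted p = 6.17e-08). By 3 and 8 h 5 of 5 such check genes had risen in both genotypes.

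The promoters of 4 members carry the element through which ATF6 and XBP1 act, and they are shown because these genes moved in different directions below. RefSeq promoter windows (GRCm38.p6, the mm10 assembly) of 300 bases, from 250 before to 50 after the annotated start, were found for 10 of 10 members and were searched on both strands. Printed here are the 250 bases before the start, 5′ to 3′ on the gene's strand, with the match in capitals. The ERSE, searched as CCAAT and CCACG with 9 free bases between them, matched in Hspa5 (chr2:34771840-34772089, plus strand), in Hsp90b1 (chr10:86705445-86705694, minus strand) and in Creld2 (chr15:88819396-88819645, plus strand). The ERSE-II, searched as ATTGG and CCACG with 1 free base between them, matched in Herpud1 (chr8:94386179-94386428, plus strand).
Hspa5: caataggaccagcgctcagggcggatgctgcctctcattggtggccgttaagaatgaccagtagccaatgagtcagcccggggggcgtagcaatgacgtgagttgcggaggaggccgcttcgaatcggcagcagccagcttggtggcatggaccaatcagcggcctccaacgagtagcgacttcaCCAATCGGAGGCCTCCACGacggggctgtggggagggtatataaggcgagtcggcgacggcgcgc
Hsp90b1: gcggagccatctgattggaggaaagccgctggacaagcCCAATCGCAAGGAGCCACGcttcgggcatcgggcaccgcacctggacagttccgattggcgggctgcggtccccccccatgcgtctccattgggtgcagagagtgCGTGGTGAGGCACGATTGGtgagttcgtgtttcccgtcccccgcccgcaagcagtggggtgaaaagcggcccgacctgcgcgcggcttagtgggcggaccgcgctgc
Creld2: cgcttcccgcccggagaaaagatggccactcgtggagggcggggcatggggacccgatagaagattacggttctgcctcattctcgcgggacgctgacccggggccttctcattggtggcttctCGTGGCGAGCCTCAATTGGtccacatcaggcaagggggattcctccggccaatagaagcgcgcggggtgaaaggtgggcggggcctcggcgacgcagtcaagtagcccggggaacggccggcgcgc
Herpud1: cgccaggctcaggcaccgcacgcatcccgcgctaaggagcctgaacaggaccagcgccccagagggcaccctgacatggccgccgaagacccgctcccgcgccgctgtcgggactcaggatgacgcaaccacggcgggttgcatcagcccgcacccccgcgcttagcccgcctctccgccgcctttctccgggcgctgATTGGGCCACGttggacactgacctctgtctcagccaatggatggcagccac
Positions count from the RefSeq start. The gene spans used for the counts begin further upstream for Hspa5 (chr2:34771970) and Hsp90b1 (chr10:86705509). Hspa5 holds its ERSE at -65 to -47 from the RefSeq start, which lies inside the span used for the counts. Hsp90b1 holds 2, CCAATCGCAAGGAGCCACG at -212 to -194 and, read on the opposite strand, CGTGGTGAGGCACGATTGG at -107 to -89. Creld2 holds 1 on the opposite strand at -126 to -108, and Herpud1 holds its ERSE-II at -52 to -42. Of 32851 windows of the same length, 0.119% hold an ERSE and 0.0365% an ERSE-II. The XBP1 element, TGACG followed directly by TGG (in 0.676% of windows) and the C/EBP-ATF composite element, TGATG and AAT with 1 free base between them (0.965%), were in none of the members' windows. The kappa B consensus, the element that NF-kB binds, matched 1 member, Creld2 at -93 to -84, with GGGGGATTCC, and is in 4.51% of windows. None of the searched elements overlapped another in these windows. A match is a string of letters and was not tested for binding.

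Each value is a sum over the exons of a whole gene, in mm10 coordinates as the tables give them. The chaperone genes are Hspa5 (ENSMUSG00000026864.11, chr2:34771970-34777547, plus strand) and Hsp90b1 (ENSMUSG00000020048.11, chr10:86690209-86705509, minus strand). The folding and degradation factors are Sdf2l1 (ENSMUSG00000022769.7, chr16:17130138-17132383, minus strand), Creld2 (ENSMUSG00000023272.3, chr15:88819646-88826681, plus strand), Dnajb9 (ENSMUSG00000014905.3, chr12:44205897-44210068, minus strand) and Herpud1 (ENSMUSG00000031770.13, chr8:94386438-94395377, plus strand). The regulators are Xbp1 (ENSMUSG00000020484.16, chr11:5520659-5525893, plus strand), Atf4 (ENSMUSG00000042406.7, chr15:80255184-80257540, plus strand), Ddit3 (ENSMUSG00000025408.13, chr10:127290774-127296288, plus strand) and Trib3 (ENSMUSG00000032715.9, chr2:152337422-152344032, minus strand).

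Per kilobase of the gene's exons, the chaperones stood highest. Hsp90b1, the ER form of Hsp90, had a median of 343 RPKM over the 38 libraries (250 to 477), and Hspa5, the chaperone BiP that also holds the sensors inactive, had 311 RPKM (190.5 to 656). Their ranges overlap. Atf4, whose range reaches into that of Hspa5, followed with 161 RPKM (90.4 to 228), then Ddit3 with 47.8 RPKM (17.8 to 90.2), Herpud1 with 34.5 RPKM, Xbp1 with 32.7 RPKM, Creld2 with 23.5 RPKM, Trib3 with 22.7 RPKM, Dnajb9 with 20.9 RPKM and Sdf2l1 with 15.1 RPKM. From Ddit3 down, the ranges of neighbours in this order overlapped. The spread was not in the same order: the highest CPM was 6.61 times the lowest for Trib3, 5.07 times for Ddit3 and 3.44 times for Hspa5, against 1.96 times for Dnajb9 and 1.91 times for Hsp90b1. Both tables enter these ranges, and values were tested only within a table.

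The TNF comparison asks how the members follow the cytokine in each genotype. At 8 h of TNF, 20.8% of all genes were called in WT and 42.1% in RelA-TA-KI. Hspa5 and Hsp90b1 rose within the first hours in both genotypes, and Trib3, a pseudokinase induced by ATF4 and CHOP, fell at 3 h in both. At 8 h Hspa5 had risen more in RelA-TA-KI than in WT cells, and Trib3 and Ddit3 had fallen in RelA-TA-KI. Before treatment no member was called between genotypes, where 0.00722% of genes were called, by edgeR or by DESeq2, and 0 had an unadjusted p below 0.05. The labels do not say whether replicates are separate embryos or cultures. The sex-linked transcripts above set WT replicates 1 and 2 of TNF apart as cells of different embryos; for RelA-TA-KI the p-values measure a spread between libraries that may be technical.

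Hspa5 stood at 1128 and 1119.5 CPM in the 2 untreated WT libraries, then at 1331 and 1305 at 0.5 h, 1435 and 1434 at 1 h, 1292 and 1327 at 3 h, and 1304 and 1403 at 8 h. RelA-TA-KI libraries had 1138 and 1123 CPM untreated, then 1445 and 1360.0, 1539 and 1449, 1419 and 1439, and 1711 and 1874 CPM at 8 h. Each treated library was thus above all untreated libraries of its genotype, and both RelA-TA-KI libraries at 8 h were above all others of the table. The log2 fold changes in WT were 0.35 at 1 h (SE 0.06, edgeR adjusted p = 0.00419), 0.22 at 3 h (SE 0.06, edgeR adjusted p = 0.028) and 0.27 at 8 h (SE 0.06, edgeR adjusted p = 0.00703). The corresponding values in RelA-TA-KI were 0.31 at 0.5 h (SE 0.06, edgeR adjusted p = 0.0271), 0.40 at 1 h (SE 0.06, edgeR adjusted p = 0.00226), 0.34 at 3 h (SE 0.06, edgeR adjusted p = 0.00257) and 0.67 at 8 h (SE 0.06, edgeR adjusted p = 2.14e-06). At 0.5 h in WT the value of 0.23 was not called (edgeR adjusted p = 0.148), while a fit with a replicate block within each genotype called it (SE 0.05, edgeR adjusted p = 0.0111). The call at 8 h in WT was lost without the second WT library of 8 h (0.21, edgeR adjusted p = 0.0872), that at 3 h in WT without any of the 4 libraries it compares (edgeR adjusted p from 0.0551 to 0.118), and that at 0.5 h in RelA-TA-KI likewise (0.0746 to 0.232).

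Hsp90b1 peaked early and came back. Untreated WT libraries had 1453 and 1372 CPM, followed by 1838 and 1724 at 0.5 h, 1844 and 1845 at 1 h, 1708 and 1587 at 3 h, and 1431 and 1311 at 8 h. RelA-TA-KI libraries had 1449 and 1436 CPM untreated, then 1882 and 1881, 1923 and 1756, 1779 and 1646, and 1396 and 1338 CPM. In both genotypes the libraries from 0.5 to 3 h lay above the untreated ones and those of 8 h did not. The rise in WT was 0.33 on the log2 scale at 0.5 h (SE 0.07, edgeR adjusted p = 0.0353), 0.39 at 1 h (SE 0.07, edgeR adjusted p = 0.0053) and 0.22 at 3 h (SE 0.07, edgeR adjusted p = 0.047). In RelA-TA-KI it was 0.38, 0.35 and 0.25 (SE 0.07 each, edgeR adjusted p = 0.015, 0.0134 and 0.0263). These calls were fragile: the WT calls at 0.5 and 3 h were lost on leaving out 9 and 8 of the 20 libraries in turn, the 1 h call without the second untreated WT library (edgeR adjusted p = 0.0796), and the RelA-TA-KI calls without either untreated library of that genotype or without the first treated library (0.0672 to 0.207). The RelA-TA-KI call at 0.5 h was also lost without the second treated library. The direction was upward in all of these fits, from 0.18 to 0.40 on the log2 scale.

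Trib3 showed the largest fall. WT libraries went from 62.7 and 96.9 CPM untreated to 47.0 and 83.8 at 0.5 h, 45.4 and 69.6 at 1 h, 28.0 and 47.8 at 3 h, and 59.9 and 83.3 at 8 h. RelA-TA-KI libraries went from 97.2 and 93.5 CPM to 72.3 and 87.1, 78.2 and 84.5, 41.5 and 48.7, and 44.2 and 44.6 CPM. In WT the first replicate was lower than the second at each time, and the levels at 8 h overlapped the untreated ones, whereas in RelA-TA-KI the 8 h libraries were as low as those of 3 h. The fall was -1.06 on the log2 scale at 3 h in WT (SE 0.30, edgeR adjusted p = 0.0251) and -1.08 in RelA-TA-KI (SE 0.29, edgeR adjusted p = 0.0198). At 8 h it was -1.10 in RelA-TA-KI (SE 0.29, edgeR adjusted p = 0.00761) and -0.16 in WT, which was not called. The WT call at 3 h was lost without the first WT library of 3 h or the second untreated one (edgeR adjusted p from 0.204 to 0.29), and the RelA-TA-KI call at 3 h without any of the 4 libraries compared (0.0637 to 0.143). The fits that left out a library had no block, so the offset between the WT replicates enters the WT values. With the replicate block within genotype, Trib3 was also called at 1 h in WT (-0.47, SE 0.09, edgeR adjusted p = 0.00152) and at 0.5 h in RelA-TA-KI (-0.26, SE 0.08, edgeR adjusted p = 0.0396).

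Ddit3, which encodes CHOP, the factor tied to death of stressed cells, also went down at 8 h in RelA-TA-KI. Its untreated levels were 93.7 and 114 CPM in WT and 106 and 101 CPM in RelA-TA-KI. At 3 h WT libraries had 66.2 and 83.2 CPM and RelA-TA-KI libraries 95.2 and 103 CPM, and at 8 h they had 80.4 and 97.4 against 71.1 and 65.0 CPM. RelA-TA-KI was thus above WT at 3 h and below it at 8 h, with no overlap at either time, though neither level difference was called (edgeR adjusted p = 0.25 and 0.117). The difference at 8 h was called without the filter on low counts and with a replicate block across genotypes. The fall in RelA-TA-KI at 8 h was -0.61 (SE 0.16, edgeR adjusted p = 0.00666), and it was not called without the second RelA-TA-KI library of 8 h (-0.54, edgeR adjusted p = 0.0625). In WT the value at 3 h was -0.47 (edgeR adjusted p = 0.0561). The replicate block within genotype called that WT value (SE 0.09, edgeR adjusted p = 0.000561) and the value of -0.34 at 1 h (SE 0.09, edgeR adjusted p = 0.017).

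Atf4, the translationally controlled activator of the amino acid and CHOP programme, had 258 and 280.5 CPM in untreated WT cells and 314 and 347 CPM at 8 h of TNF. In RelA-TA-KI it had 285 and 273 CPM untreated and 287 and 284 CPM at 8 h. The WT libraries of 8 h lay above the untreated ones and the RelA-TA-KI ones did not separate. The WT rise was 0.30 (SE 0.09, edgeR adjusted p = 0.0323); it was not called without either untreated WT library or without the second library of 8 h (edgeR adjusted p from 0.0592 to 0.237), nor with upper quartile scaling (0.23, edgeR adjusted p = 0.0885). At 0.5 h the values of 0.18 in WT and 0.26 in RelA-TA-KI were called by the replicate block within genotype (edgeR adjusted p = 0.0474 and 0.00129) and not without it. Xbp1, which encodes the factor activated by IRE1, stood at 95.4 and 105 CPM in untreated WT and at 102 and 116 CPM at 8 h, and in RelA-TA-KI at 109 and 112 CPM and at 128 and 139 CPM. The rise of 0.27 in RelA-TA-KI was called (SE 0.09, edgeR adjusted p = 0.0323), though not without either untreated library of that genotype or the second of 8 h (edgeR adjusted p from 0.1 to 0.2), nor with upper quartile scaling (0.17, edgeR adjusted p = 0.145). In WT the Xbp1 value was 0.12 and was not called.

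Herpud1, Dnajb9, Creld2 and Sdf2l1 were not called with TNF at any time in either genotype in the fit without a block. Herpud1, a membrane protein of ER-associated degradation, ranged from 56.6 to 101 CPM over the 20 libraries, with 66.5 and 71.7 CPM in RelA-TA-KI at 8 h against 94.3 and 86.6 CPM untreated. That value of -0.39 was not called (edgeR adjusted p = 0.0648). It was called with the replicate block within genotype (SE 0.09, edgeR adjusted p = 0.00119), and also with upper quartile scaling, without the filter on low counts, with only the compared groups and without either WT library of 3 h. Dnajb9, a J-domain partner of BiP, ranged from 31.7 to 44.5 CPM, Creld2, an ER-resident protein of disulfide handling, from 28.6 to 36.4 CPM, and Sdf2l1, which binds ER chaperone complexes, from 12.3 to 20.9 CPM. Their largest absolute log2 fold changes were -0.20 for Dnajb9, 0.16 for Creld2 and 0.31 for Sdf2l1.

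**Figure D1:**
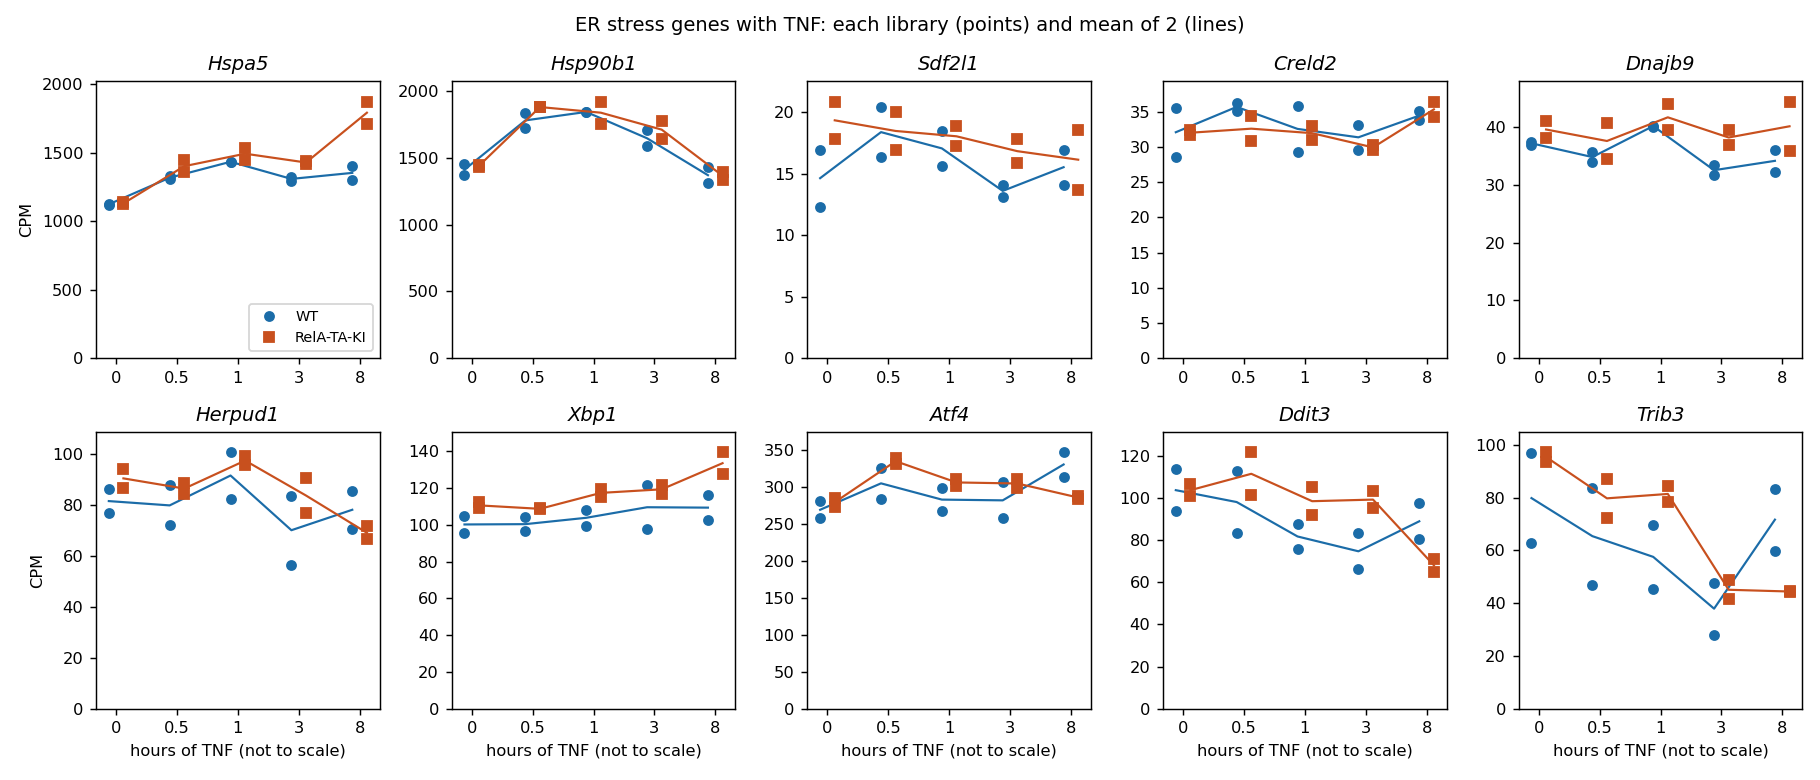
CPM (y axis, from 0) of the 10 members at 0, 0.5, 1, 3 and 8 h of TNF (x axis, not to scale) in WT (circles) and RelA-TA-KI (squares); each point is 1 library and each line joins means of 2. Hspa5 in RelA-TA-KI reaches 1711 and 1874 CPM at 8 h, above all other libraries, while Trib3 there stays at 44.2 and 44.6 CPM.

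Counted over the set, edgeR called 1, 2, 3 and 2 of 10 members in WT at 0.5, 1, 3 and 8 h, where 1.04%, 3.81%, 15.7% and 20.8% of all genes tested were called. In RelA-TA-KI it called 2, 2, 3 and 4 of 10, where 1.07%, 3.28%, 19% and 42.1% of all genes were called. At 8 h both shares are therefore at or near the background, and at 0.5 and 1 h they rest on Hspa5 and Hsp90b1. By direction, 2 rose and 1 fell at 3 h in each genotype, where 9.32% of all genes rose and 6.36% fell in WT and 10.9% rose and 8.08% fell in RelA-TA-KI. At 8 h 2 rose and 0 fell in WT (all genes 12% and 8.8%), and 2 rose and 2 fell in RelA-TA-KI (21.6% and 20.5%). With upper quartile scaling the split was 0 higher and 2 lower in WT at 3 h, 1 and 1 in RelA-TA-KI at 3 h, 1 and 0 in WT at 8 h, and 1 and 3 in RelA-TA-KI at 8 h. The median log2 fold change of the members at 8 h was 0.01 in WT and -0.03 in RelA-TA-KI, beside -0.01 and -0.02 for all genes. With the replicate block within genotype the count was 3 at 0.5 h and 4 at 1 h in WT and 4 at 0.5 h in RelA-TA-KI. The shares of all genes above come from the fit without a block and are no background for these 3 counts. Without such a background the 3 counts are not read as a result about the members. All times of a genotype are compared with the same 2 untreated libraries.

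Whether the response itself differed between genotypes was tested as the RelA-TA-KI response minus the WT response. At 8 h it did for Hspa5. The chaperone rose more in RelA-TA-KI, by 0.40 on the log2 scale or 1.32-fold (SE 0.09, edgeR adjusted p = 0.0169), and it was the member called of 10, where 6.87% of all genes were called. The levels at 8 h differed as well: 1711 and 1874 CPM in RelA-TA-KI against 1304 and 1403 CPM in WT, a difference of 0.41 (SE 0.06, edgeR adjusted p = 0.000677), where 15.9% of genes were called. The difference of responses was lost on leaving out any of 4 libraries in turn, namely the first untreated WT, the first WT of 8 h, the second untreated RelA-TA-KI or the second RelA-TA-KI of 8 h (edgeR adjusted p from 0.0582 to 0.0775, log2 difference from 0.33 to 0.39). Fitted on the compared groups alone it was 0.39 and was not called (edgeR adjusted p = 0.101). Macrophage markers moved with this result, with summed levels of 1286 and 2007 CPM in the 2 untreated WT libraries and 1517 and 2414 CPM at 8 h, against 1726 and 2895 CPM and then 2504 and 4707 CPM in RelA-TA-KI. None of the 19 tested markers was called for the difference of responses, and their part in the result was not tested.

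For the remaining 9 members the difference of responses at 8 h was not called without a block. Trib3 had -0.94 (SE 0.41, edgeR adjusted p = 0.185), Ddit3 -0.38 (SE 0.22, edgeR adjusted p = 0.321) and Atf4 -0.26 (SE 0.13, edgeR adjusted p = 0.24). The replicate block within genotype narrowed these errors and called all 3: Trib3 at -0.96 (SE 0.12, edgeR adjusted p = 2.18e-05), Ddit3 at -0.39 (SE 0.12, edgeR adjusted p = 0.0331) and Atf4 at -0.26 (SE 0.07, edgeR adjusted p = 0.0107). In that fit Hspa5 was called above WT in response, and Trib3, Ddit3 and Atf4 below it. At 3 h the same fit called Ddit3 in the other direction (0.41, SE 0.12, edgeR adjusted p = 0.0492). The shares of all genes given here come from the fit without a block. These blocked calls have no share beside them, so how many members were called is not read as a result. Without the block 0 members were called at 0.5, 1 and 3 h, where 0.0506%, 0.311% and 0.932% of genes were called, and 0 had an unadjusted p below 0.05 in edgeR; DESeq2 called 0 as well. Levels at 0.5, 1 and 3 h were not called between genotypes for any member by edgeR or DESeq2 (0.195%, 0.91% and 3.19% of genes were called); at an unadjusted p below 0.05 there were 0, 0 and 1 members.

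**Figure D2:**
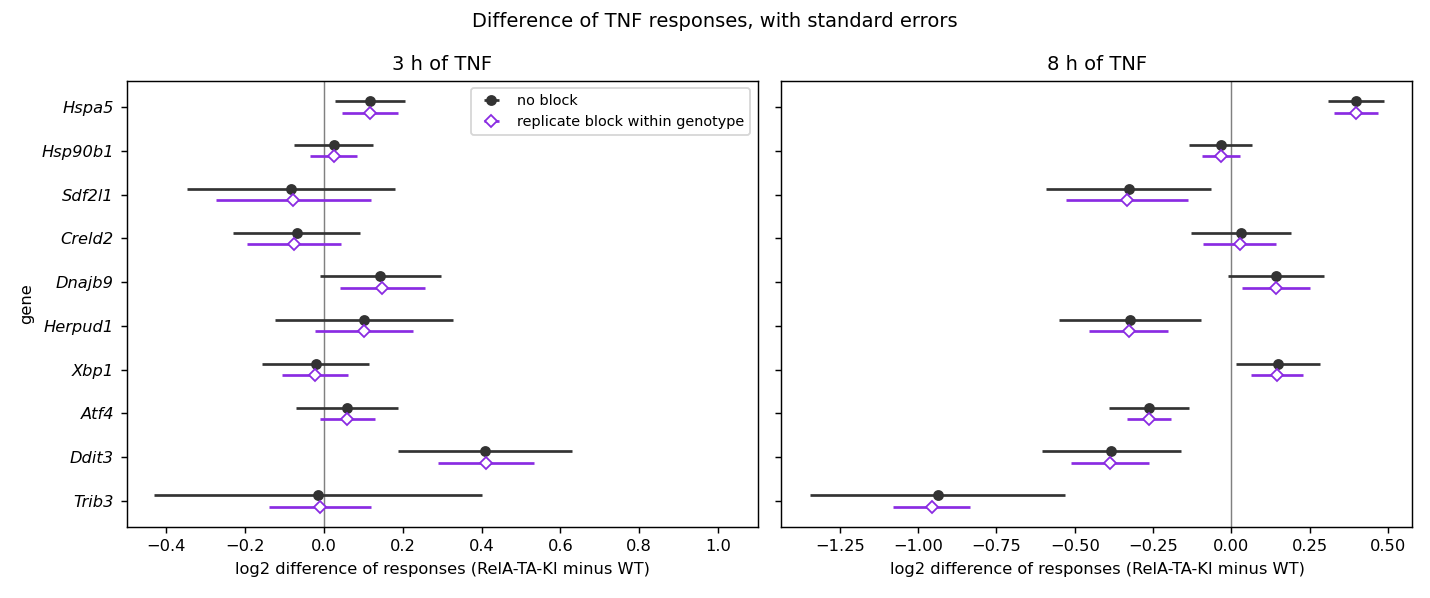
Log2 difference of TNF responses, RelA-TA-KI minus WT (x axis), for each member (y axis) at 3 h (left) and 8 h (right), without a block (filled circles) and with a replicate block within genotype (open diamonds); bars are standard errors. At 8 h Hspa5 lies at 0.40 and Trib3 at -0.94, and the block shortens the bar of Trib3 from 0.41 to 0.12.

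With LPS and Poly(I:C) the members moved in 2 phases. Many other genes were called too: 46.1% of all genes at 3 h of LPS and 18.9% at 3 h of Poly(I:C), then 64.2% and 51.3% at 8 h. At 3 h, Ddit3, Herpud1, Dnajb9 and Trib3 fell with both agents while Hspa5 rose. By 8 h, Hspa5, Hsp90b1, Xbp1, Atf4, Creld2 and Ddit3 had risen with both, so Ddit3 had turned from its lowest to its highest levels, while Herpud1 and Trib3 were still below untreated cells. These tests use a fit in which the response is shared by the genotypes, with 1 library of each genotype per condition; their p-values measure how a response varied over genotypes and conditions, not between replicates. Both agents are compared with the same pair of untreated libraries, and values of the 2 tables were scaled separately. Some of these rises depended on the scaling. With upper quartile scaling Hspa5 at 3 h of Poly(I:C), Hsp90b1 at 8 h of either agent and Creld2 at 8 h of Poly(I:C) were not called.

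Hspa5 climbed at each time of LPS. In WT it stood at 806 CPM untreated and at 872, 931, 1413 and 2758 CPM at 0.5, 1, 3 and 8 h, and in RelA-TA-KI at 837 and then 911, 967, 1425 and 2774 CPM. Poly(I:C) gave levels of 847, 857, 1100.1 and 1732 CPM in WT and 877, 912, 1115 and 2542 CPM in RelA-TA-KI. The genotypes ran together except at 8 h of Poly(I:C). The shared rise with LPS was 0.79 at 3 h (SE 0.12, edgeR adjusted p = 0.000318) and 1.75 at 8 h, or 3.37-fold (SE 0.13, edgeR adjusted p = 4.46e-07). With Poly(I:C) it was 0.43 at 3 h (SE 0.12, edgeR adjusted p = 0.0297) and 1.37 at 8 h, or 2.59-fold (SE 0.13, edgeR adjusted p = 5.16e-06). With upper quartile scaling the 3 h Poly(I:C) value was 0.26 and was not called (edgeR adjusted p = 0.0745).

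Hsp90b1 rose at 8 h. It stood at 1025 CPM in untreated WT and 1086 CPM in untreated RelA-TA-KI, at 1520.0 and 1514 CPM at 8 h of LPS, and at 1183 and 1266 CPM at 8 h of Poly(I:C). The rises of 0.52 with LPS (SE 0.07, edgeR adjusted p = 7.65e-05) and 0.21 with Poly(I:C) (SE 0.07, edgeR adjusted p = 0.0293) depended on the scaling. Upper quartile scaling gave 0.15 with LPS (edgeR adjusted p = 0.08) and reversed the Poly(I:C) value to -0.07 (edgeR adjusted p = 0.437). Creld2 went from 32.2 CPM in untreated WT to 66.3 at 8 h of LPS and 40.5 at 8 h of Poly(I:C), and from 27.2 to 44.4 and 47.9 CPM in RelA-TA-KI. All 4 values at 8 h exceeded the untreated and earlier ones of either genotype. Its log2 rises were 0.89 with LPS (SE 0.17, edgeR adjusted p = 0.000617) and 0.58 with Poly(I:C) (SE 0.17, edgeR adjusted p = 0.0133), the latter 0.29 and not called with upper quartile scaling (edgeR adjusted p = 0.133).

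Sdf2l1, the member with the lowest level per length, had 18.7 and 15.6 CPM in untreated WT and RelA-TA-KI, 23.5 and 26.9 CPM at 8 h of LPS, and 18.5 and 22.5 CPM at 8 h of Poly(I:C). It rose with LPS by 0.55 (SE 0.16, edgeR adjusted p = 0.0105), a value of 0.18 and not called with upper quartile scaling (edgeR adjusted p = 0.331), and was not called with Poly(I:C). Dnajb9 dipped at 3 h, from 46.7 and 43.0 CPM untreated to 27.9 and 31.8 with LPS and 32.9 and 30.4 with Poly(I:C). At 8 h it was back at 54.7 and 45.5 CPM with LPS but still at 33.3 and 33.6 CPM with Poly(I:C). The falls were -0.58 at 3 h of LPS (SE 0.12, edgeR adjusted p = 0.00156), -0.50 at 3 h of Poly(I:C) (SE 0.11, edgeR adjusted p = 0.00884) and -0.42 at 8 h of Poly(I:C) (SE 0.12, edgeR adjusted p = 0.00928).

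Herpud1, whose promoter holds the ERSE-II shown above, fell with both agents at 3 and 8 h, as did Trib3. Its level was 84.5 CPM in untreated WT and 76.5 in untreated RelA-TA-KI, with 88.1 and 83.1 CPM at 1 h of LPS. At 3 h it had dropped to 42.4 and 43.4 CPM with LPS and to 47.7 and 48.2 CPM with Poly(I:C). At 8 h it stood at 61.3 and 49.4 CPM with LPS and at 63.4 and 59.1 CPM with Poly(I:C), between the 3 h and the untreated levels. On the log2 scale it fell by 0.90 at 3 h (SE 0.09, edgeR adjusted p = 1.15e-05) and by 0.54 at 8 h of LPS (SE 0.09, edgeR adjusted p = 0.000265). In the Poly(I:C) libraries it fell by 0.75 at 3 h (SE 0.09, edgeR adjusted p = 0.000106) and by 0.39 at 8 h (SE 0.09, edgeR adjusted p = 0.0035).

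Among the transcription factors, Xbp1 and Atf4 rose at 8 h. Xbp1 had 88.6 and 95.9 CPM in untreated WT and RelA-TA-KI, 178 and 197 CPM at 8 h of LPS, and 109.6 and 184 CPM at 8 h of Poly(I:C). Its rise was 1.02 with LPS (SE 0.14, edgeR adjusted p = 5.69e-05) and 0.65 with Poly(I:C) (SE 0.14, edgeR adjusted p = 0.00234). Atf4 had 195 and 202 CPM untreated, 251 and 250.2 CPM at 3 h of LPS, 392 and 346 CPM at 8 h of LPS, and 261 and 344 CPM at 8 h of Poly(I:C). It rose by 0.34 at 3 h of LPS (SE 0.12, edgeR adjusted p = 0.0331), 0.90 at 8 h of LPS (SE 0.12, edgeR adjusted p = 4.22e-05) and 0.60 at 8 h of Poly(I:C) (SE 0.12, edgeR adjusted p = 0.00131). The 3 h value was 0.05 and not called with upper quartile scaling (edgeR adjusted p = 0.685). At 8 h of Poly(I:C), both genes were lower in WT than in RelA-TA-KI.

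Ddit3 swung both ways. From 70.3 and 69.4 CPM in untreated WT and RelA-TA-KI it declined to 60.7 and 62.5 at 0.5 h of LPS, 51.0 and 51.5 at 1 h and 30.5 and 35.0 at 3 h, and then stood at 109 and 123 CPM at 8 h. Poly(I:C) took it through 58.5 and 54.7, 45.2 and 50.9, and 41.2 and 35.5 CPM to 103 and 155 CPM at 8 h. In both genotypes and with both agents the 3 h library was the lowest and the 8 h library the highest of its series. The log2 values were -1.10 at 3 h (SE 0.16, edgeR adjusted p = 0.000154) and 0.73 at 8 h of LPS (SE 0.15, edgeR adjusted p = 0.00109), and -0.86 (SE 0.15, edgeR adjusted p = 0.00186) and 0.87 (SE 0.15, edgeR adjusted p = 0.000577) with Poly(I:C). Trib3, which CHOP and ATF4 can induce, stayed below untreated levels at 8 h. It had 48.9 and 49.4 CPM untreated, 14.7 and 23.3 CPM at 3 h of LPS, 30.7 and 24.8 CPM at 8 h of LPS, 24.4 and 33.3 CPM at 3 h of Poly(I:C) and 29.9 and 29.8 CPM at 8 h of Poly(I:C). It fell by 1.38 at 3 h (SE 0.18, edgeR adjusted p = 9.77e-05) and by 0.82 at 8 h of LPS (SE 0.18, edgeR adjusted p = 0.00178). With Poly(I:C) it fell by 0.78 at 3 h (SE 0.18, edgeR adjusted p = 0.00864) and by 0.72 at 8 h (SE 0.18, edgeR adjusted p = 0.00546).

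**Figure D3:**
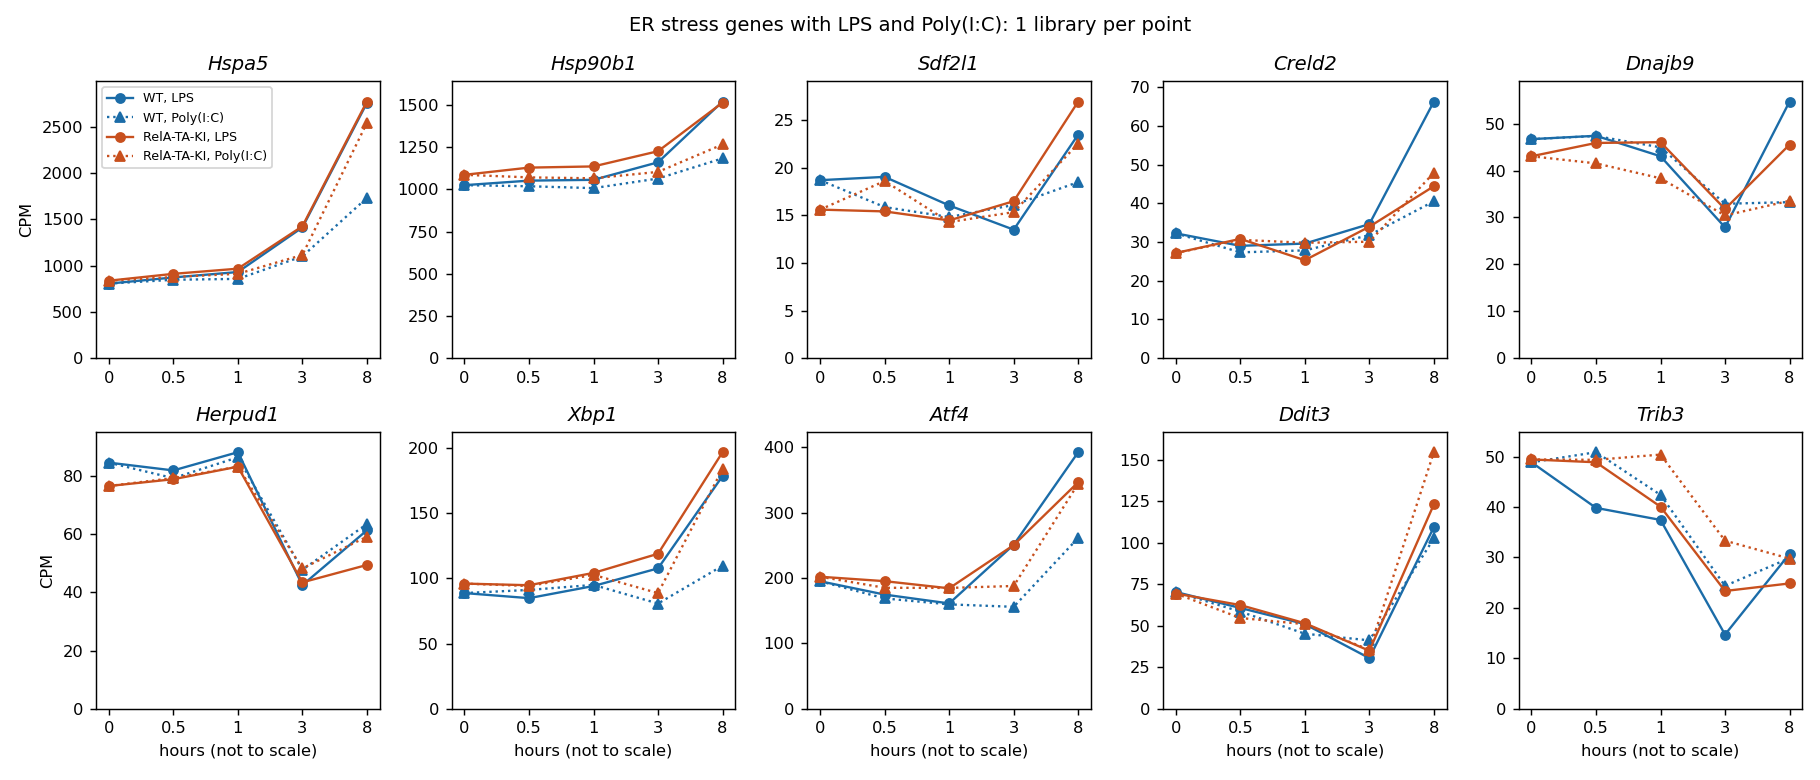
CPM (y axis, from 0) of the 10 members at 0, 0.5, 1, 3 and 8 h (x axis, not to scale) of LPS (circles, solid lines) or Poly(I:C) (triangles, dotted lines) in WT (blue) and RelA-TA-KI (orange), with 1 library per point. Ddit3 dips to 30.5 and 35.0 CPM at 3 h of LPS before 109 and 123 CPM at 8 h, and Hspa5 reaches 2758 and 2774 CPM.

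Counted over the set, edgeR called 6 of 10 members at 3 h of LPS (2 higher, 4 lower) and 9 at 8 h (7 higher, 2 lower), where 46.1% and 64.2% of all genes tested were called (22.8% higher and 23.3% lower at 3 h, 30.9% and 33.2% at 8 h). With Poly(I:C) it called 5 at 3 h (1 higher, 4 lower) and 9 at 8 h (6 higher, 3 lower), where 18.9% and 51.3% of all genes were called (11% higher and 7.87% lower at 3 h, 25.2% and 26.1% at 8 h). At 0.5 and 1 h it called 0 with either agent (0.149% and 1.05% of genes with LPS, 0.00784% and 0% with Poly(I:C)); DESeq2 called 0 too, and 0 members at 0.5 h and 1 at 1 h of each agent had an unadjusted p below 0.05. The median log2 fold change of the members at 8 h was 0.64 with LPS and 0.42 with Poly(I:C), beside -0.05 and -0.04 for all genes. At 3 h it was -0.01 with LPS and -0.17 with Poly(I:C), beside -0.02 and -0.01. Upper quartile scaling lowered the median of all genes by 0.28 and 0.37 with LPS and by 0.17 and 0.28 with Poly(I:C) at 3 and 8 h. It gave splits of 1 higher and 5 lower at 3 h and 5 and 2 at 8 h of LPS, and of 0 and 5, and 4 and 3, with Poly(I:C). Relative to the median of all genes, Hspa5 at 8 h of LPS stood at 1.80 and Herpud1 at -0.49 under either scaling.

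**Figure D4:**
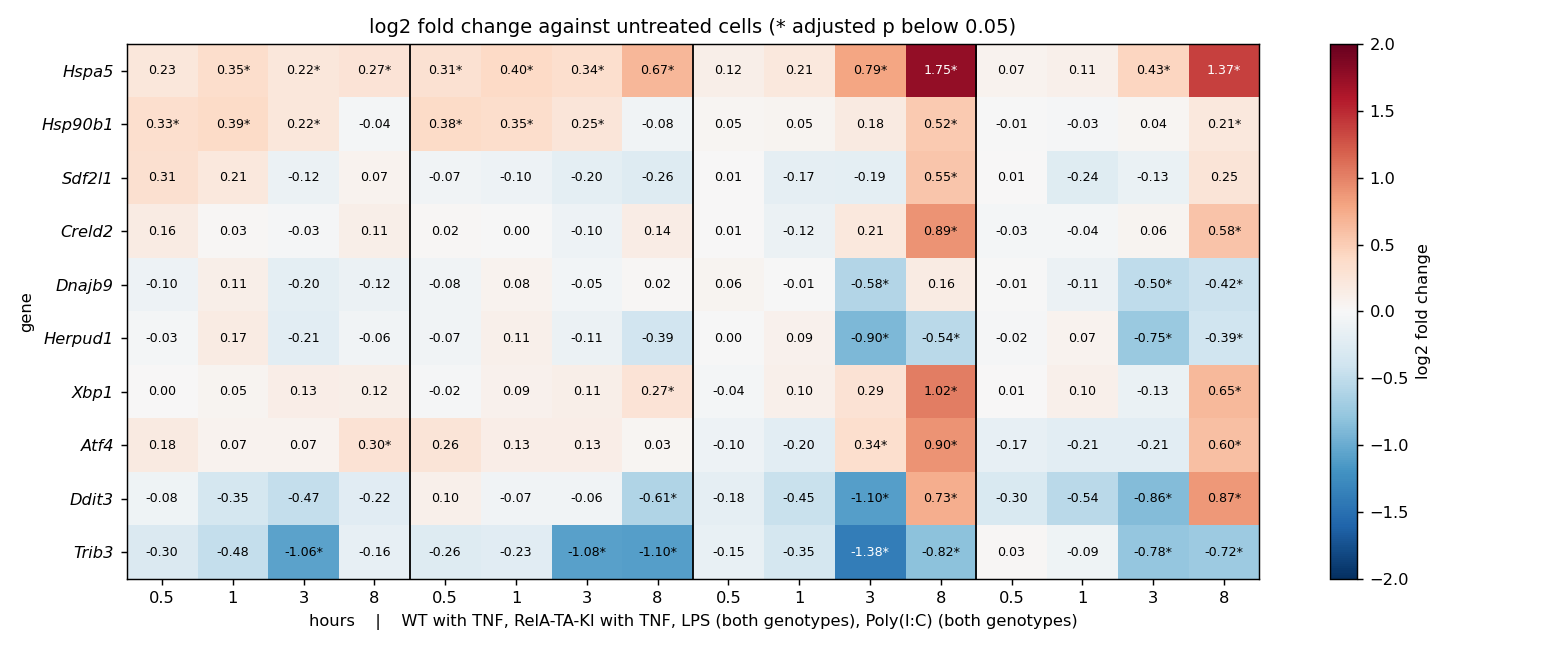
Log2 fold change against untreated cells (colour and printed value) of the 10 members (rows) at 0.5, 1, 3 and 8 h (columns) of TNF in WT, TNF in RelA-TA-KI, LPS and Poly(I:C), the last 2 shared by both genotypes; asterisks mark an adjusted p below 0.05. The Hspa5 row is positive throughout, up to 1.75 at 8 h of LPS, while Ddit3 changes sign between 3 h (-1.10) and 8 h (0.73) of LPS.

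LPS and Poly(I:C) were compared directly at the same times. At 3 h Atf4 was higher with LPS by 0.55 (SE 0.12, edgeR adjusted p = 0.0191), the member called of 10, where 9.66% of genes were called; the levels were 251 and 250.2 CPM with LPS against 156 and 188 CPM with Poly(I:C). DESeq2 called 3 members there and upper quartile scaling 2, which added Trib3, at -0.60 in the main scaling (edgeR adjusted p = 0.0657). At 8 h Dnajb9 was higher with LPS by 0.58 (SE 0.12, edgeR adjusted p = 0.00981) and Hsp90b1 by 0.31 (SE 0.07, edgeR adjusted p = 0.0199), 2 of 10 where 13.1% of genes were called. The Hsp90b1 call was lost with upper quartile scaling (0.22, edgeR adjusted p = 0.0628), which left 1 member. Hspa5 was at 0.38 and was not called (edgeR adjusted p = 0.0616). Between agents, Herpud1 and Creld2 did not pass the test at either time.

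A genotype difference shared by the 9 conditions of this table was not called for any member by edgeR (smallest adjusted p = 0.0669, for Xbp1), where 15.9% of all genes were called; 2 had an unadjusted p below 0.05, Xbp1 at 0.19 and Atf4 at 0.14, and DESeq2 called 1, Hsp90b1. Xbp1 was called with upper quartile scaling and without the 8 h Poly(I:C) libraries, and Atf4 without the 8 h LPS libraries. Single conditions have no replicate and no test. At 8 h of Poly(I:C) the ratio of RelA-TA-KI to WT on the log2 scale was 0.74 for Xbp1, 0.59 for Ddit3, 0.55 for Hspa5 and 0.40 for Atf4, with Trib3 at 0.00 and Herpud1 at -0.10. There 8 of 10 members were above WT, with a median of 0.26 beside -0.01 for all genes, and 10.9% of all genes differed at least 2-fold. At 8 h of LPS the ratio was 0.01 for Hspa5, 0.14 for Xbp1 and -0.58 for Creld2, and 4 of 10 members were above WT. Marker sums differed between the same libraries. At 8 h of Poly(I:C) WT and RelA-TA-KI had 43251 and 68849 CPM for fibroblast markers, 155 and 793 CPM for epithelial and endothelial markers, 31.8 and 86.2 CPM for muscle markers, and 5478 and 6533 CPM for macrophage markers. The sums at 8 h of LPS were 57563 and 63376, 94.9 and 302, 26.1 and 70.4, and 5945 and 5610.4 CPM. Of the 10 epithelial and endothelial markers, Epcam was at 0 in 3 of these 4 libraries and Cldn5 in all 4. The sums of that list, higher in RelA-TA-KI with both agents, thus include other genes of the list, which are not named here. Whether such cells were present is not read from Epcam and Cldn5 alone. The part of these markers in the ratios was not tested.

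The other genes of the pathway were read from 5 lists of ER chaperones and folding enzymes, ER-associated degradation, ER translocation and export, targets of ATF4 and CHOP, and the sensors with their proteases and kinases. At 8 h of LPS, where 30.9% of all genes rose and 33.2% fell, 13 of 17 tested chaperones rose and 1 fell, with a median of 0.51. Ero1l, the oxidase that drives disulfide formation, rose by 1.60 (SE 0.27, edgeR adjusted p = 0.000338), Manf, a secreted ER stress factor, by 1.27 (SE 0.09, edgeR adjusted p = 4.25e-07) and Dnajb11, a BiP partner, by 0.88 (SE 0.08, edgeR adjusted p = 2.43e-06), while Ero1lb, the paralogue of Ero1l, fell by 0.88 (SE 0.23, edgeR adjusted p = 0.0051). Of the degradation genes, 11 of 13 rose and 0 fell (median 0.35), led by the ubiquitin ligase Syvn1 (1.44, SE 0.13, edgeR adjusted p = 2.43e-06). Of translocation and export genes, 8 of 14 rose and 0 fell (median 0.38), with Sec63 at 1.69 and the COPII coat gene Sec23b at 1.52. Upper quartile scaling changed these splits to 6 higher and 3 lower for chaperones, 2 and 3 for degradation, and 2 and 3 for translocation and export. The calls over all genes shifted as well: 27.5% of them were higher under that scaling, against 48.2% in the main one. Syvn1 and Sec63 were called under both scalings.

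Targets of ATF4 and CHOP had the highest median of the 5 lists with LPS at 8 h: 15 of 23 rose and 2 fell (median 0.72), or 12 and 3 with upper quartile scaling. The cystine transporter Slc7a11 rose by 3.20 (SE 0.34, edgeR adjusted p = 9.35e-06), the transcription factors Cebpb by 3.11 (SE 0.37, edgeR adjusted p = 2.15e-05) and Atf3 by 2.58 (SE 0.29, edgeR adjusted p = 1.26e-05), and Ppp1r15a, the phosphatase subunit that restores translation, by 2.06 (SE 0.57, edgeR adjusted p = 0.00786). Cebpb and Atf3 are also known as genes of acute inflammatory signalling. Of the sensors and kinases, 4 of 10 rose and 2 fell (3 and 4 with upper quartile scaling), a share near the 64.2% of all genes called in that comparison. Eif2ak2, the double-stranded RNA kinase that interferon induces, rose by 2.66 (SE 0.11, edgeR adjusted p = 8.52e-09) and Ern1, which encodes IRE1, by 0.73 (SE 0.13, edgeR adjusted p = 0.000443). Eif2ak3, which encodes PERK, fell by 0.99 (SE 0.18, edgeR adjusted p = 0.000589). Marker genes moved in the same comparison: 9 of 19 macrophage markers were higher and 5 lower, and 6 of 10 fibroblast markers were higher and 1 lower. Their part in the list counts was not tested.

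At 8 h of Poly(I:C), where 25.2% of all genes rose and 26.1% fell, 10 of 17 chaperones rose and 0 fell (median 0.30), 5 of 13 degradation genes rose and 0 fell (0.18), 4 of 14 translocation genes rose and 1 fell (0.09), 14 of 23 ATF4 and CHOP targets rose and 2 fell (0.58), and 3 of 10 sensors and kinases rose and 1 fell (0.12). Upper quartile scaling gave 4 and 3, 2 and 1, 2 and 3, 11 and 4, and 2 and 2. Of all calls there, 27.1% were higher with that scaling and 49.2% with the main one. For 3 h these shares were 25.6% and 49.5% with LPS, and 34% and 58.3% with Poly(I:C). Manf rose by 0.90 (SE 0.09, edgeR adjusted p = 1.16e-05), Syvn1 by 1.06 (SE 0.13, edgeR adjusted p = 4.87e-05), and Eif2ak3 fell by 0.90 (SE 0.18, edgeR adjusted p = 0.00173). At 3 h of LPS, where 22.8% of all genes rose and 23.3% fell, 10 of 17 chaperones had risen and 0 fallen (0 and 0 with upper quartile scaling) and 9 of 23 ATF4 and CHOP targets had risen and 5 fallen (5 and 9), among them Ddit4, an inhibitor of mTOR signalling, which fell by 2.25 (SE 0.50, edgeR adjusted p = 0.00337). Degradation genes stood at 4 higher and 1 lower of 13 (1 and 4) and translocation genes at 6 and 0 of 14 (2 and 3). At 3 h of Poly(I:C), where 11% of all genes rose and 7.87% fell, each of chaperones, degradation and translocation had 1 gene higher and 0 lower, and ATF4 and CHOP targets had 1 higher and 3 lower (1 and 9 with upper quartile scaling).

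With TNF at 8 h in WT, where 20.8% of all genes were called, 1 of 17 chaperones, 0 of 13 degradation genes, 1 of 14 translocation genes, 6 of 24 ATF4 and CHOP targets and 3 of 10 sensors rose, and 0 fell. With upper quartile scaling chaperones stood at 1 higher and 2 lower, degradation at 0 and 2 and translocation at 0 and 2. Over all genes, 43.2% of calls in WT and 37.4% in RelA-TA-KI were higher with that scaling, against 57.7% and 51.3% otherwise. In RelA-TA-KI the counts were 4 higher and 2 lower, 2 and 2, 5 and 1, 9 and 3, and 6 and 1, where 42.1% of all genes were called; upper quartile scaling gave 3 and 5, 1 and 4, 4 and 1, 7 and 3, and 5 and 3. Ern1 rose by 0.62 in WT (SE 0.08, edgeR adjusted p = 8.36e-05) and by 0.75 in RelA-TA-KI (SE 0.08, edgeR adjusted p = 6.59e-06). The difference of responses at 8 h was called for 3 of 24 ATF4 and CHOP targets, 2 of 10 sensors and 0 genes of the other lists, where 6.87% of all genes were called. Upper quartile scaling left 2 of the ATF4 and CHOP targets, without Nars, and added 1 degradation gene, Erlec1, on the lower side. Atf6 (0.54, SE 0.12, edgeR adjusted p = 0.0154) and Eif2ak4, which encodes the amino acid sensor GCN2 (0.66, SE 0.15, edgeR adjusted p = 0.0169), responded more in RelA-TA-KI, as did the asparaginyl-tRNA synthetase gene Nars (0.28, SE 0.08, edgeR adjusted p = 0.046). Ddit4 (-0.70, SE 0.15, edgeR adjusted p = 0.0156) and Bbc3, which encodes the pro-apoptotic PUMA (-0.85, SE 0.20, edgeR adjusted p = 0.0189), were below WT in response. None of the 17 chaperones on the list, which leaves out the members, was called there beside Hspa5.

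**Figure D5:**
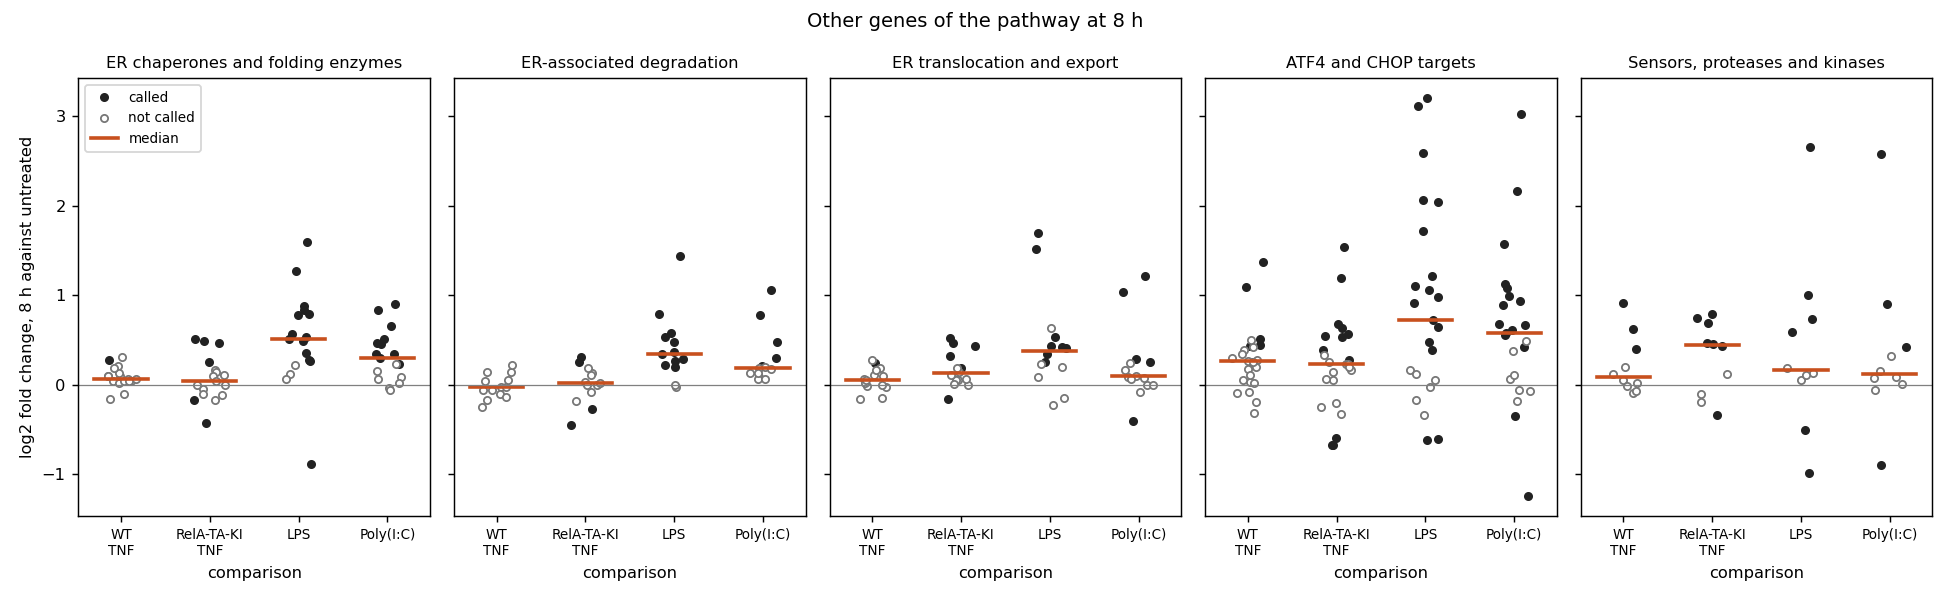
Log2 fold change at 8 h against untreated cells (y axis) of the pathway's other genes in 5 lists (panels) for TNF in WT, TNF in RelA-TA-KI, LPS and Poly(I:C) (x axis); filled points are called genes, open points are not, and bars are list medians. The median of the ATF4 and CHOP targets is 0.72 with LPS and 0.58 with Poly(I:C), and that of the chaperones 0.51 and 0.30.

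Over the 10 group means of the TNF table, the genes outside the set whose log2 CPM ran closest to Hspa5 were Cpeb4 (Pearson r = 0.967), Nol12 (0.962), Senp2 (0.95), Myc (0.946) and Cse1l (0.945), among 10876 genes. Among those closest to Ddit3 were Zrsr1 (0.964), Acsf3 (0.946), Vsig10 (0.934) and Fam110b (0.931). None of the genes named here is a chaperone or an ATF4 target of the lists. Within the set, Hspa5 ran with Xbp1 (0.752) and against Ddit3 (-0.579), and Ddit3 ran with Trib3 (0.752) and Herpud1 (0.661). Hspa5 and Hsp90b1, which share the ERSE in their promoters, had a correlation of 0.15. The points share times, genotypes and scaling, so these values describe the shapes and carry no test.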

How the data were processed

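Poly(A) RNA of 38 samples in 28 groups (10 of 2 samples, 18 of 1) was sequenced. The authors deposited whole-number counts per gene in 2 tables; per the submitters' processing notes cutadapt 1.9.1, STAR, featureCounts 1.4.6, mm10 and DESeq2 were used. Which annotation release and strand setting were used, and how multi-mapping reads were treated, are not given in the sources used here. Of 45706 identifiers, 45143 had a symbol.

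From the counts, edgeR 4.0.16 (R 4.3.3, limma 3.58.1) was run with TMM scaling, filterByExpr and the quasi-likelihood F test, adjusted by Benjamini-Hochberg with a threshold of 0.05. The TNF table was fitted as 10 groups (13843 genes, 10 residual degrees of freedom). The LPS and Poly(I:C) table was fitted as condition plus genotype (12752 genes, 8 residual degrees of freedom), since each group holds 1 library. Standard errors are the absolute log2 fold change over the root of F. RPKM used the lengths in the tables.

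The 10 members and all lists were chosen with earlier results of these data known. All members are named. From each pathway list, up to 4 called genes of largest absolute log2 fold change and a mean of at least 1 CPM were taken per comparison, and the text gives some of them. Genes nearest in pattern were ranked by Pearson correlation over 10 group means of log2(CPM + 0.5), among genes with a mean of at least 5 CPM. A gene that this ranking gave is not reported here.

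Alternatives were DESeq2 1.42.0, upper quartile scaling, no filter, only the compared groups, replicate blocks and leaving out each library or condition. Same-numbered libraries deviated together within WT (correlations 0.161 to 0.529) and within RelA-TA-KI (0.161 to 0.37), with all 10 pairs of each above 0.1, and 24 of 25 pairs across genotypes were above 0.1 (0.00558 to 0.338, median 0.212). Not every pair across genotypes passed, and numbers were taken to pair libraries within a genotype only. The cut does not settle this, since the median was 0.256 within RelA-TA-KI and 0.212 across genotypes. The choice rests on the data, since the labels do not say what a number marks. The main calls and the shares of all genes come from the fit without a block, which ignores any pairing. In WT, replicates 1 and 2 of TNF differed in the sex-linked transcripts at each time, so a pairing is ignored there. A member not called in the main fit may be called with the block within genotype, as Trib3 was for the difference of responses at 8 h. The scripts were tested on simulated data.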

Additional observations from a re-analysis of the deposited data

Results flagged for a closer look

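The rise of Hspa5 with TNF at 8 h differed between genotypes by a test of the difference itself: the RelA-TA-KI response exceeded the WT response by 0.40 on the log2 scale (SE 0.09, edgeR adjusted p = 0.0169). Hspa5 was the member called of 10, where 6.87% of all genes were called. Both RelA-TA-KI libraries were above both WT libraries at 8 h. The call was lost on leaving out any of 4 libraries in turn, with a log2 difference from 0.33 to 0.39. On the compared groups alone it was 0.39 and was not called (edgeR adjusted p = 0.101). With the replicate block within genotype, Trib3, Ddit3 and Atf4 were called too, with responses below WT.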

How the results depend on the processing

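Of 53 member calls, 28 held under all alternatives run and 25 were lost under at least 1. Upper quartile scaling reversed 3 values: Hsp90b1 (-0.067) and Ssr2 (-0.0028) at 8 h of Poly(I:C), and Pdia3 (-0.00062) at 3 h of LPS. This scaling lowered the median of all genes by 0.28 in both comparisons, and relative to that median Hsp90b1 stood at 0.25 under either scaling. The numbers of members called moved as follows. Fitting only the compared groups, with fewer libraries and residual degrees of freedom, gave 0 in WT at 0.5, 1, 3 and 8 h, 1 and 0 in RelA-TA-KI at 0.5 and 1 h, and 0 for the genotype and the response difference at 8 h, where the Hspa5 level difference was 0.40 (edgeR adjusted p = 0.0764). Upper quartile scaling gave 0 and 1 in WT at 0.5 and 8 h, 1 for genotype over the LPS and Poly(I:C) conditions, and 2 and 1 for LPS against Poly(I:C) at 3 and 8 h. Without the filter the counts were 4 in WT at 1 h, 1, 1 and 4 for genotype at 1, 3 and 8 h, and 2 for the response difference at 8 h. DESeq2 gave 2 in WT at 0.5 h, 1 for genotype over the LPS and Poly(I:C) conditions and 3 for LPS against Poly(I:C) at 3 h. Without the 8 h LPS or the 8 h Poly(I:C) libraries the genotype count was 1.

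A replicate block across genotypes gave 2 members in WT at 0.5 h, 5 for genotype at 8 h and 2 for the response difference at 8 h. The replicate block within genotype gave 3 and 4 in WT at 0.5 and 1 h, 4 in RelA-TA-KI at 0.5 h, and 1 and 4 for the response difference at 3 and 8 h. No share of all genes is set beside the blocked counts. Leaving out 1 library at a time gave 0 to 1, 1 to 2, 0 to 4 and 0 to 2 members in WT at 0.5, 1, 3 and 8 h, and 0 to 2, 1 to 2, 1 to 3 and 2 to 5 in RelA-TA-KI. For the response difference at 8 h it gave 0 to 1, and for genotype at 8 h 1 to 2. With 2 libraries a group, or 1 with LPS and Poly(I:C), the number of libraries limits precision.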
